A study of Mus musculus with 26 samples.

Results

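The eicosanoid synthesis enzymes examined here are 10 genes, *Alox5*, *Alox5ap*, *Alox12*, *Alox15*, *Lta4h*, *Ptgs1*, *Ptgs2*, *Ptgds*, *Ptges* and *Hpgd*, chosen by symbol as the core prostaglandin and leukotriene enzymes. All 10 were found among the 23337 genes of the count tables, in each of 26 RNA samples. ArKI is the labels' name for the mice that carry a knock-in allele, and wild-type (WT) mice were the controls. The initial segment (IS) and the caput are the proximal segments of the epididymis, and both were collected from 5 ArKI and 5 WT mice. The testis came from 3 ArKI and 3 WT mice. All mice were males of 3 months, and the strain is given in the labels as C57Bl/6N and 129 hybrid for every sample. The comparison of ArKI with WT asks how the enzymes' mRNA levels depend on the genotype in each tissue.

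Eicosanoids are signalling lipids made from arachidonic acid that phospholipases release from membranes. The cyclooxygenases turn it into prostaglandin H2, from which terminal synthases make prostaglandins D2 and E2, and the lipoxygenases oxidise it at different carbons to hydroperoxy acids and, through 5-lipoxygenase, to leukotrienes. In the epididymis, prostaglandin D synthase is known as an abundant secreted protein of the luminal fluid, and prostaglandins regulate the contraction of the duct and ion transport by its epithelium.

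Sequencing depth was lower in the epididymis, with totals of 5829074 to 9770625 counts for IS samples and 4125768 to 11913469 for caput samples, than in the testis (14077013 to 21376604). Levels are given as CPM, a gene's count relative to the sample's total after scaling by the TMM method, and, between genes, as RPKM, which is CPM per kilobase of exon. A signal of 3 counts, taken as the smallest that the depth can show, came to at most 0.631 CPM in any sample, a limit that takes in counting error alone. Epididymis was sequenced in a different run from testis, and a difference between these organs cannot be told apart from the run. The summed level of 6 IS markers was 13526 to 14760 CPM in the WT IS and 781 to 1969 CPM in the WT caput, while 6 caput markers summed to 72709 to 80871 CPM in the IS and 70105 to 88827 CPM in the caput, with 4 of them called higher and 2 lower in the IS, and so did not mark the caput against the IS. In the ArKI caput, replicate 2 had the lowest total of all samples. It also had the lowest *Alox5*, *Ptgds*, *Alox12* and *Lta4h* and the highest *Ptgs1*, *Ptgs2*, *Ptges* and *Hpgd* of its group.

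The promoters of *Ptgds*, *Alox5* and *Alox12* are shown because these genes had the clearest differences between ArKI and WT. Each is the 250 bases before the RefSeq transcription start in GRCm38.p6, written 5′ to 3′ on the gene's strand, with capitals marking matches to the GC box GGGCGG on either strand, a common promoter motif. The *Ptgds* window is chr2:25469750-25469999, that of *Alox5* is chr6:116461179-116461428 and that of *Alox12* is chr11:70255371-70255620, all on the minus strand. The *Ptgds* window lies inside the gene's GENCODE interval (chr2:25466709-25470046), because the RefSeq and GENCODE starts differ.
Ptgds: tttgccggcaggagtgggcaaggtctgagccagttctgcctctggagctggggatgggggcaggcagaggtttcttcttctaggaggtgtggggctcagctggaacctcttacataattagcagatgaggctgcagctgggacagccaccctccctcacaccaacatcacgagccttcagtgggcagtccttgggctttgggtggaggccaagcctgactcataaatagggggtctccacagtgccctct
Alox5: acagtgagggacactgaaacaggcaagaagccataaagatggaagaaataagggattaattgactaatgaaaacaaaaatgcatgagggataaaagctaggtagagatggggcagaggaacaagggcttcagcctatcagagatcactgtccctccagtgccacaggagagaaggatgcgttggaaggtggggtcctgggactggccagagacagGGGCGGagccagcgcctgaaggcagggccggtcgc
Alox12: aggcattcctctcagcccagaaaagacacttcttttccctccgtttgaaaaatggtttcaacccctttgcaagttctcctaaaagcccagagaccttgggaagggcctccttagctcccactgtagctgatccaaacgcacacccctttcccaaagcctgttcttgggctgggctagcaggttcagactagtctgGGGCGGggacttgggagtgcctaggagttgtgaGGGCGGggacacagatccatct

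No match was found in the *Ptgds* window. The *Alox5* window held a single GC box starting 35 bases before the start site. The *Alox12* window held GC boxes starting 55 and 22 bases before the start site. Of 32851 RefSeq promoter windows of this length, 32.7% held the GC box, so a match is not rare. A RefSeq promoter was given for 8 of the 10 genes, all but *Alox5ap* and *Alox15*. GC boxes also occurred in the windows of *Ptgs2*, *Ptges* and *Hpgd*.

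In WT mice the tissues differed widely in these enzymes, and *Ptgds* led in each of them. *Ptgds* encodes lipocalin-type prostaglandin D synthase (GRCm38, chr2:25466709-25470046), which isomerises prostaglandin H2 to prostaglandin D2. Its level per length in WT was 1041 RPKM in the caput, 200 RPKM in the testis and 56.0 RPKM in the IS. That was 91.7% of the summed RPKM of the 10 genes in the WT caput, 92.7% in the WT testis and 53.5% in the WT IS. In the WT IS the genes next in RPKM were *Lta4h* (10.1), *Hpgd* (9.35) and *Ptgs1* (8.23), and in the WT caput they were *Ptgs1* (30.3), *Alox12* (19.5) and *Hpgd* (16.6). *Alox15*, *Alox5ap* and *Ptgs2* were each below 3 RPKM in all 6 groups.

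**Figure D1:**
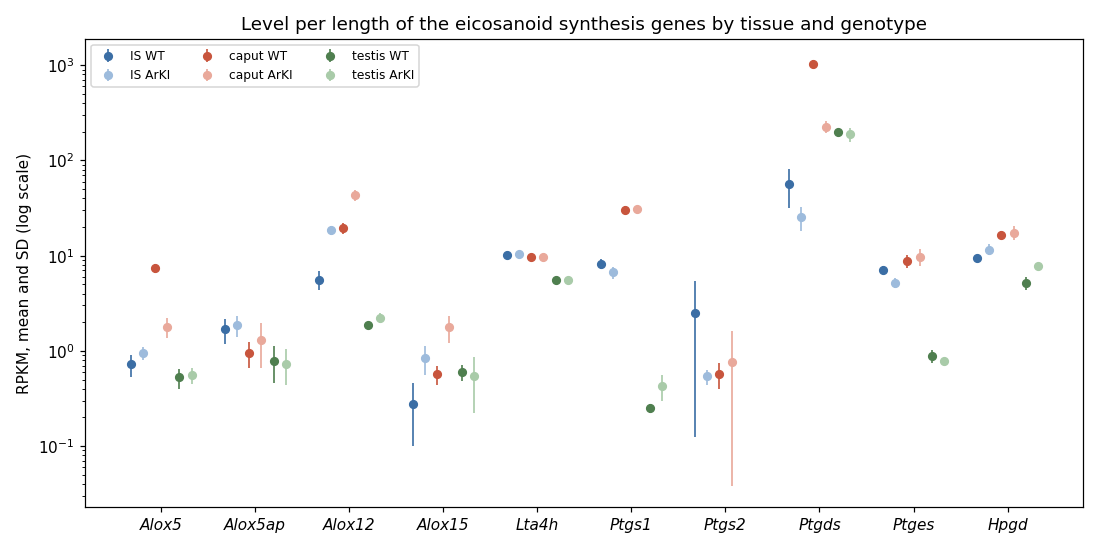
Level of each gene per kilobase of exon (RPKM, log scale) by tissue and genotype, with points at the mean and bars at 1 SD over 5 samples (IS, caput) or 3 samples (testis). *Ptgds* is the highest gene in all 6 groups, and *Ptgs2* in the testis, with at most 2 counts in any sample, is not drawn.

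Between the 2 segments of WT mice, 9 of the 10 genes differed, 7 lower and 2 higher in the IS, at an edgeR adjusted p below 0.05. Across all 13787 genes tested, 71.2% passed the same threshold (35.4% lower, 35.8% higher). *Ptgds* was 18.7-fold lower in the IS than in the caput (log2 fold change -4.22 ± 0.29, SE) and *Alox5* 10.4-fold lower (-3.38 ± 0.13). *Ptgs1*, *Alox12*, *Alox15*, *Hpgd* and *Ptges* were also lower in the IS, by 3.70-fold, 3.47-fold, 2.05-fold, 1.78-fold and 1.26-fold. *Alox5ap* was 1.77-fold higher in the IS (edgeR adjusted p = 0.00932). *Ptgs2* was 4.22-fold higher there (edgeR adjusted p = 0.044), a call that 7 of 16 alternatives did not keep. Leaving out any WT caput sample or IS WT replicate 4 ended it, with log2 fold changes of 1.92 to 2.21. The size of the difference rests on IS WT replicate 3, without which the log2 fold change was 1.01 ± 0.24 (SE, edgeR adjusted p = 0.00127). *Lta4h* differed by 0.068 on the log2 scale, with a 95% interval from -0.038 to 0.17. The median log2 difference was -0.94 over the 10 genes and 3.79e-04 over all genes tested. As the study's methods read, both segments came from the same WT mice, and the test treats their samples as independent.

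The WT testis had 8 of the genes lower than the WT caput and none higher, where 92.0% of 16402 genes differed and 43.2% were lower. Against the WT IS it had 7 lower and 2 higher, where 91.9% of all genes differed (42.5% lower, 49.4% higher). In the testis the median gene was shifted by 0.19 against the IS and 0.16 against the caput on the log2 scale, so these counts are read only for the largest steps. *Ptgs1* had 0.970 ± 0.110 CPM in the WT testis (SD, n = 3) and 118 ± 11.1 CPM in the WT caput (n = 5). *Ptgs2* had 0, 1 and 0 counts in the 3 WT testis samples and 2, 1 and 0 counts in the 3 ArKI testis samples, all under the 3 counts that the depth can show. *Ptgds* exceeded its IS level in the testis, with 330 ± 23.8 CPM (n = 3) against 92.3 ± 40.5 CPM (n = 5), and so did *Alox15* (log2 1.17 ± 0.37), a call lost with library size only (0.77, edgeR adjusted p = 0.0552).

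In the caput *Ptgds* and *Alox5* were lower and *Alox12* and *Alox15* higher in ArKI than in WT mice. In the IS *Alox12* and *Alox15* rose as well, *Hpgd* rose slightly, and *Ptgds*, *Ptges* and *Ptgs1* fell. In the testis *Hpgd* alone passed the test. Thus 6 of the 10 genes changed in the IS, where 29.6% of the 13434 genes tested did, and 4 of 10 in the caput, where 27.7% of 13726 did. In the testis 1 of the 9 genes that passed the filter on low counts changed, against 1.96% of 15838 genes tested (1.64% higher). In the IS 3 rose and 3 fell, where 15.0% of all genes rose and 14.6% fell, and in the caput 2 rose and 2 fell, where 13.7% rose and 14.0% fell. At the thresholds of the study's methods, a fold change above 2 together with an adjusted p below 0.01 (epididymis) or 0.2 (testis), the counts were 2 in the IS (*Alox12* and *Alox15*), 4 in the caput and 0 in the testis, beside 4.04%, 4.98% and 0.833% of all genes. The median log2 fold change of the genes was 0.084 in the IS, 0.077 in the caput and -0.021 in the testis, beside -4.41e-05, 0.0017 and -0.0023 over all genes tested. In whole tissue, fewer cells of a type and less RNA per cell cannot be told apart.

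**Figure D2:**
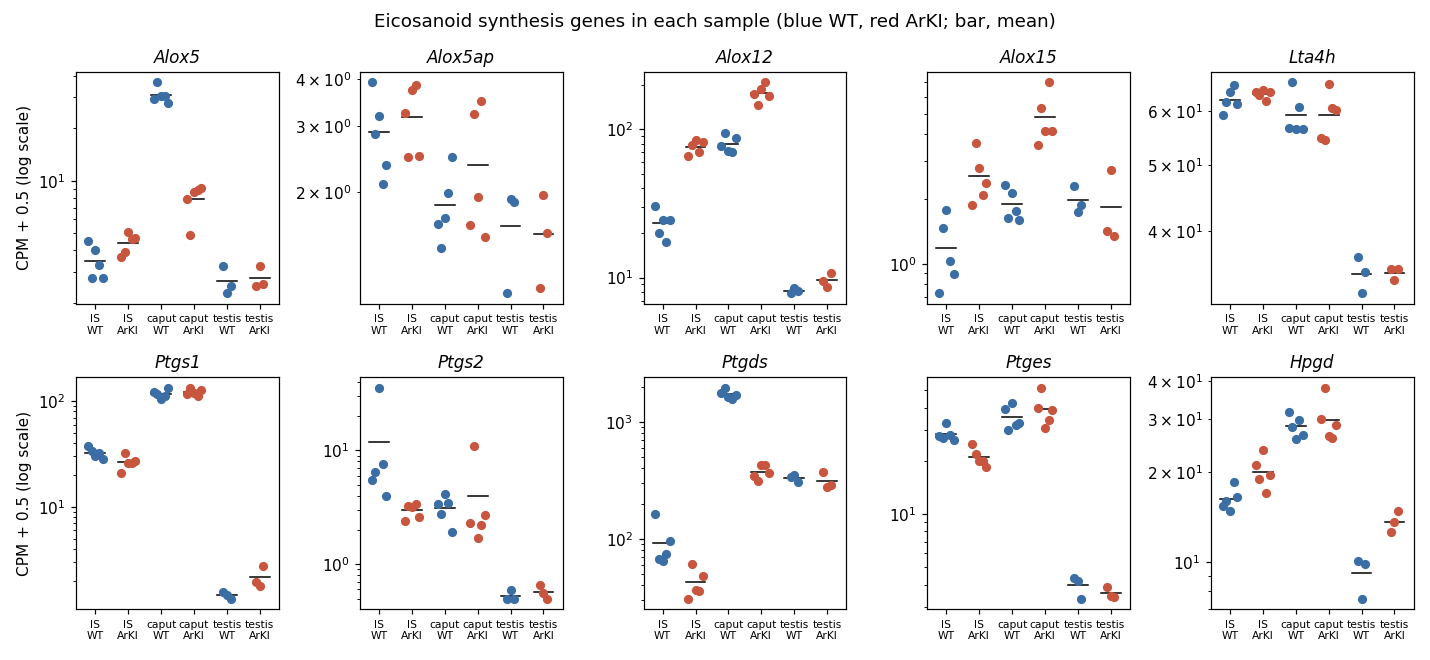
CPM plus 0.5 of each gene in each sample (log scale, a separate axis for each gene), with WT samples in blue, ArKI samples in red and the group mean as a bar. The 5 ArKI caput samples lie below all WT caput samples for *Ptgds* and *Alox5* and above them for *Alox12* and *Alox15*.

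Prostaglandin D synthase fell in both epididymal segments. In the caput *Ptgds* was at 1749, 1955, 1631, 1569 and 1683 CPM in WT replicates 1 to 5 and at 344, 310, 422, 427 and 364 CPM in ArKI replicates 1 to 5. Every ArKI sample was thus far below the lowest WT sample. The fold change was 4.61 downward (log2 -2.21 ± 0.084, SE, edgeR adjusted p = 8.22e-11), and 1.41% of all genes tested in the caput had a larger absolute change. Without replicate 2 of the ArKI caput the log2 fold change was -2.15.

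In the IS *Ptgds* was at 161, 66.6, 63.9, 74.1 and 95.4 CPM in WT and at 30.3, 60.0, 35.8, 35.3 and 47.5 CPM in ArKI. The groups did not overlap, but the highest ArKI sample and the lowest WT sample were close. The fall was 2.20-fold (log2 -1.14 ± 0.32, edgeR adjusted p = 0.0294), and it lost the threshold in 6 of 17 alternatives (counted here and below without the study's thresholds), with an adjusted p of 0.103 under the replicate block. The other 5 left out ArKI replicate 1, 3, 4 or 5 or WT replicate 5, with log2 fold changes of -1.04 to -1.19 and edgeR adjusted p of 0.0514 to 0.0675. Without WT replicate 1, the highest sample, the log2 fold change was -0.84 (edgeR adjusted p = 0.0266). In the testis *Ptgds* had 330 ± 23.8 CPM in WT and 312 ± 50.9 CPM in ArKI (n = 3 each), a log2 difference of -0.10 with a 95% interval from -0.31 to 0.10.

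Over the 6 groups, the order of *Ptgds* was WT caput, ArKI caput, WT testis, ArKI testis, WT IS and ArKI IS. ArKI caput and WT testis were neighbours whose samples overlapped (310 to 427 CPM and 304 to 352 CPM), as were the testis groups. Its share of the summed RPKM of the 10 genes went from 91.7% ± 0.43 in the WT caput to 65.7% ± 3.28 in the ArKI caput (SD, n = 5 each), and from 53.5% ± 9.58 to 30.5% ± 5.54 in the IS. A share within the 10 genes also moves with every other member, and *Alox12* took 12.5% in the ArKI caput against 1.71% in WT.

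Prostaglandin E synthase, encoded by *Ptges* (chr2:30889471-30929863), is the inducible enzyme that makes prostaglandin E2. In the IS it was at 27.0, 26.4, 32.4, 27.6 and 25.6 CPM in WT and at 24.3, 21.4, 19.4, 19.4 and 17.9 CPM in ArKI, with no overlap. The fall was 1.36-fold (log2 -0.44 ± 0.091, edgeR adjusted p = 0.00103) and held in all 17 alternatives, though not at the study's thresholds. In the caput *Ptges* had 34.8 ± 5.46 CPM in WT and 38.5 ± 8.05 CPM in ArKI (n = 5 each), a log2 difference of 0.11 with a 95% interval from -0.19 to 0.41.

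Of the cyclooxygenases, *Ptgs1* (chr2:36230426-36252272) encodes the constitutive COX-1. It was at 37.4, 32.9, 30.0, 31.7 and 27.8 CPM in the WT IS and at 20.3, 31.5, 25.5, 25.8 and 26.4 CPM in the ArKI IS. ArKI replicate 2 lay within the WT range. The fall was 1.23-fold (log2 -0.30 ± 0.10, edgeR adjusted p = 0.0332), and it kept the threshold in 9 of 17 alternatives. Library size only ended the call (-0.27, edgeR adjusted p = 0.0504). So did leaving out ArKI replicate 1, 3, 4 or 5 or WT replicate 1, 2 or 4. These gave log2 fold changes of -0.22 to -0.31 and edgeR adjusted p of 0.0540 to 0.0892. In the caput *Ptgs1* had 118 ± 11.1 CPM in WT and 122 ± 8.70 CPM in ArKI, a log2 difference of 0.043 with a 95% interval from -0.091 to 0.18. In the testis its 3 ArKI samples (1.45, 1.29 and 2.26 CPM) lay above its 3 WT samples (1.08, 0.971 and 0.860 CPM), with an edgeR adjusted p = 0.307. *Ptgs1* shares 148 exon bases with *Gm43621* on the opposite strand, and whether the counting used strand is not given in the sources used here.

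*Ptgs2* (chr1:150100031-150108227) encodes COX-2, the cyclooxygenase induced by inflammatory and growth signals. In the IS it was at 5.01, 6.01, 35.1, 7.06 and 3.44 CPM in WT and at 1.88, 2.77, 2.70, 2.88 and 2.11 CPM in ArKI. All ArKI samples were below all WT samples, and WT replicate 3 stood far above the rest. The log2 fold change was -2.20 ± 0.80 with an edgeR adjusted p = 0.0743, so it was not called. Without WT replicate 3 it was -1.12 with an edgeR adjusted p = 0.00152, and DESeq2 gave an adjusted p = 0.00435 on all samples. In the caput ArKI replicate 2 was at 10.5 CPM and the other 4 ArKI samples at 1.19 to 2.19 CPM, against 1.43 to 3.62 CPM in WT. The log2 difference there was 0.13 with all samples and -0.61 without that replicate (edgeR adjusted p = 0.0981), and it was also negative with limma-voom (-0.31) and without WT replicate 5 (-0.0096), so no direction is given.

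Among the lipoxygenases, 5-lipoxygenase fell in the caput. *Alox5* (chr6:116410077-116461178) makes leukotriene A4 and is best known from leukocytes. In the caput it was at 28.8, 36.1, 30.0, 30.1 and 27.4 CPM in WT and at 7.39, 4.42, 8.13, 8.36 and 8.59 CPM in ArKI. The 5 WT values were more than 3 times the highest ArKI value, and ArKI replicate 2 was the lowest. The fall was 3.98-fold (log2 -1.99 ± 0.11, edgeR adjusted p = 1.56e-09), and without that replicate the log2 fold change was -1.91 (edgeR adjusted p = 4.57e-11). The order over the 6 groups was WT caput, ArKI caput, ArKI IS, WT IS, ArKI testis and WT testis. From the ArKI caput downward each group overlapped its neighbour, but the ArKI caput met the ArKI IS only through replicate 2. Its other samples were at 7.39 CPM or more, against at most 4.59 CPM in the ArKI IS.

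In the IS *Alox5* had 2.96 ± 0.770 CPM in WT and 3.91 ± 0.603 CPM in ArKI (n = 5 each), a log2 difference of 0.40 that did not pass (edgeR adjusted p = 0.158). In the testis it had 2.16 ± 0.509 and 2.27 ± 0.433 CPM (n = 3 each). Neutrophil markers were close to 0 in the caput, with a summed level over the 7 genes in the table of at most 0.552 CPM in WT and 0.421 CPM in ArKI. *Ngp* was at 0 in both groups, and none of the 7 passed the filter. Of the 8 mast cell and eosinophil markers, summing to 1.13 to 3.35 CPM in WT and 0.227 to 1.68 CPM in ArKI, none passed the filter either, and *Prg2* was at 0 in both groups. The 10 macrophage markers summed to 126 to 159 CPM in the WT caput and 159 to 247 CPM in the ArKI caput, with *Lyz2* called higher and none lower. Their part in the *Alox5* difference was not tested.

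*Alox12* (chr11:70241457-70255353) encodes the platelet-type 12-lipoxygenase, which makes 12-hydroperoxy acids. In the IS it was at 30.1, 19.4, 24.0, 16.9 and 24.2 CPM in WT and at 65.8, 78.2, 85.0, 70.2 and 81.2 CPM in ArKI. In the caput it was at 76.2, 93.9, 70.8, 69.5 and 87.3 CPM in WT and at 172, 146, 187, 207 and 169 CPM in ArKI. The groups were apart in both segments. The rise was 3.31-fold in the IS (log2 1.73 ± 0.13, edgeR adjusted p = 1.57e-06) and 2.21-fold in the caput (log2 1.14 ± 0.097, edgeR adjusted p = 2.86e-06), and it held in all 17 alternatives in each segment. The level of the ArKI IS overlapped that of the WT caput.

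In the testis *Alox12* was at 7.34, 8.04 and 7.66 CPM in WT and at 9.01, 8.18 and 10.2 CPM in ArKI, again without overlap, but the log2 difference of 0.22 did not pass (edgeR adjusted p = 0.503). Groups that did not overlap were common among all genes tested, at 2687 of 13434 in the IS, 2787 of 13726 in the caput and 2826 of 15838 in the testis. Platelet markers are given beside *Alox12* because of its known platelet expression. The 5 markers summed to 14.5 to 17.7 CPM in the WT IS and 17.9 to 22.2 CPM in the ArKI IS, and to 26.2 to 33.6 and 31.2 to 41.4 CPM in the caput. *Itga2b* was called higher in both segments (log2 0.26 in the IS and 0.25 in the caput), and *Gp9* was at 0 in all ArKI IS samples. Their part in the rise of *Alox12* was not tested.

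*Alox15* (chr11:70344152-70352031), the mouse 12/15-lipoxygenase of macrophages and eosinophils, rose in both segments at a low level. In the IS it had 2, 9, 11, 4 and 4 counts in WT and 11, 24, 17, 10 and 17 counts in ArKI, and in the caput 19, 11, 15, 11 and 10 counts in WT and 27, 23, 43, 80 and 47 counts in ArKI. In CPM the groups did not overlap in either segment. The rise was 3.01-fold in the IS (log2 1.59 ± 0.37, edgeR adjusted p = 0.00296) and 3.07-fold in the caput (log2 1.62 ± 0.25, edgeR adjusted p = 0.000109). In the testis *Alox15* had 1.47 ± 0.293 CPM in WT and 1.33 ± 0.782 CPM in ArKI (n = 3 each), a log2 difference of -0.13 with a 95% interval from -0.80 to 0.54. The 10 macrophage markers summed to 245 to 335 CPM in the WT IS and 210 to 284 CPM in the ArKI IS, with 4 called lower and none higher. In the caput the macrophage sums given above met at 159 CPM, the highest WT and the lowest ArKI value, and of the 10 only *Lyz2* was called higher. Their part in the rise of *Alox15* was not tested in either segment.

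The remaining leukotriene genes showed no difference between the genotypes that passed the test. *Lta4h* (chr10:93453411-93484875), the hydrolase that turns leukotriene A4 into leukotriene B4, was the steadiest member. It had 61.9 ± 2.37 CPM in WT and 63.1 ± 0.927 CPM in ArKI in the IS, 58.8 ± 4.23 and 58.6 ± 4.69 CPM in the caput and 34.1 ± 2.09 and 34.3 ± 0.752 CPM in the testis. The 95% intervals of the log2 difference were -0.063 to 0.12 in the IS, -0.12 to 0.12 in the caput and -0.19 to 0.15 in the testis. *Alox5ap* (chr5:149264767-149288153), the membrane protein that presents arachidonic acid to 5-lipoxygenase, had only 8 to 37 counts per sample. Its log2 differences were 0.14 in the IS, 0.42 in the caput and -0.044 in the testis, and in the caput the 95% interval ran from -0.25 to 1.08. *Alox5ap* shares 189 exon bases with the antisense gene *Gm19719*.

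Prostaglandin breakdown was represented by *Hpgd* (chr8:56294585-56321043), the dehydrogenase that oxidises prostaglandins as the first step of their inactivation. In the testis it was at 9.57, 7.06 and 9.38 CPM in WT and at 12.1, 13.1 and 14.3 CPM in ArKI, without overlap. The rise was 1.48-fold (log2 0.57 ± 0.13, edgeR adjusted p = 0.0209), and leaving out WT replicate 2 or 3 or ArKI replicate 2 or 3 lost the call, with log2 fold changes of 0.44 to 0.66 over the 6 samples left out in turn. Beside it, 3 of 6 Leydig cell markers were called higher (*Cyp11a1*, *Cyp17a1* and *Hsd17b3*) and none lower. They summed to 700 to 865 CPM in the WT testis and 1100 to 1166 CPM in the ArKI testis. Of the other marker lists, 1 macrophage, 1 smooth muscle and 1 fibroblast marker were called higher and 1 caput marker lower. The part of these markers in the rise of *Hpgd* was not tested.

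In the IS *Hpgd* was at 14.9, 15.5, 14.3, 18.0 and 16.0 CPM in WT and at 20.6, 18.5, 23.2, 16.5 and 19.0 CPM in ArKI. The groups overlapped through ArKI replicate 4 and WT replicate 4. The rise was 1.25-fold (log2 0.32 ± 0.099, edgeR adjusted p = 0.0195), and it kept the threshold in 15 of 17 alternatives. Without ArKI replicate 3 it was 0.25 (edgeR adjusted p = 0.0608) and without WT replicate 3 it was 0.28 (edgeR adjusted p = 0.0515). In the caput *Hpgd* had 27.9 ± 2.36 CPM in WT and 29.3 ± 4.94 CPM in ArKI, a log2 difference of 0.039 with a 95% interval from -0.16 to 0.24.

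**Figure D3:**
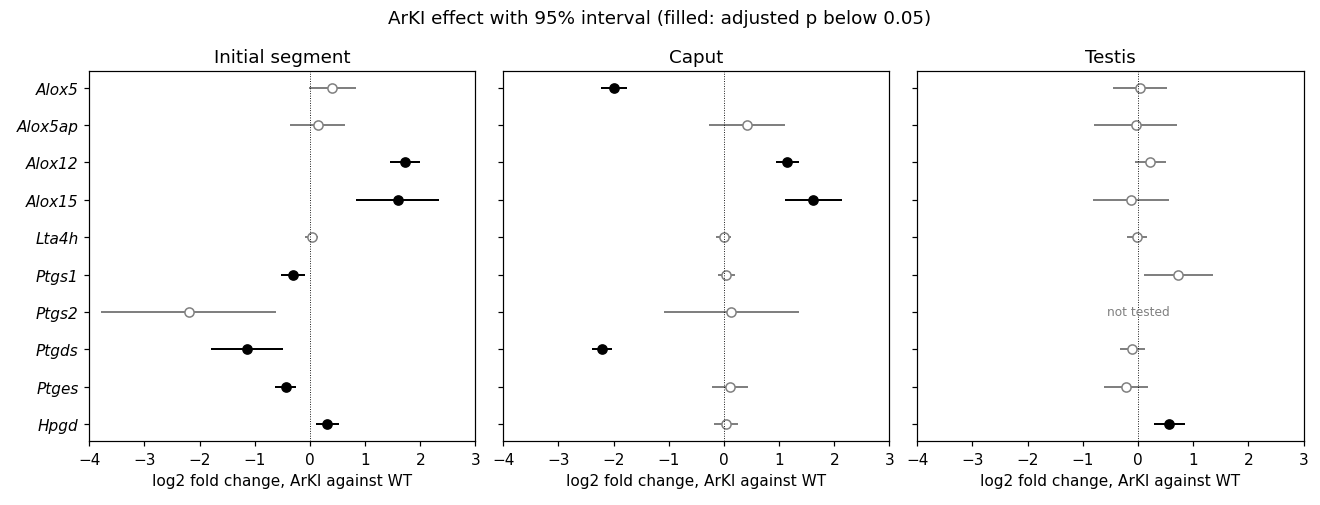
Log2 fold change of ArKI against WT for each gene in the IS, caput and testis, with 95% intervals and filled points where the edgeR adjusted p was below 0.05. *Alox12* and *Alox15* lie to the right in the IS and caput, *Ptgds* to the left in both, and *Alox5* lies far to the left (-1.99) in the caput and not in the IS (0.40).

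Whether the ArKI effect differed between the segments was tested as an interaction of segment and genotype over the 20 epididymal samples. It passed for 3 of the 10 genes, all with a lower effect in the caput, where 15.1% of 14329 genes passed and 7.77% in that direction. *Alox5* had the largest difference, its log2 effect in the caput being 2.40 below that in the IS (-2.40 ± 0.23, SE, edgeR adjusted p = 7.72e-08), and it held in all 26 alternatives. The effect on *Ptgds* was more negative in the caput (-1.07 ± 0.32, edgeR adjusted p = 0.0327), and that on *Alox12* was smaller in the caput (-0.58 ± 0.17, edgeR adjusted p = 0.0300). These calls were kept in 17 and 19 of 26 alternatives. As the study's methods read, both segments came from the same 5 mice of each genotype. No label ties a sample to a mouse, and the test treats the samples as independent. With the replicate number within genotype as a block, *Ptgds* lost its call (-1.12, edgeR adjusted p = 0.0594), while *Ptgs1* (0.35, edgeR adjusted p = 0.0284) and *Ptges* (0.57, edgeR adjusted p = 0.00384) gained one. The call of *Ptgds* was also lost without IS ArKI replicate 2, IS WT replicate 3 or caput ArKI replicate 1 or 2 (-0.91 to -1.05), and that of *Alox12* without IS ArKI replicate 3, caput WT replicate 5 or caput ArKI replicate 5 (-0.53 to -0.57). Leaving out IS ArKI replicate 5, IS WT replicate 2, IS WT replicate 4 or caput WT replicate 2 left *Alox5* as the only gene called. For *Ptges* the difference was 0.54 ± 0.19 and did not pass (edgeR adjusted p = 0.0537). *Alox15* gave 0.027 by edgeR and -0.13 ± 0.50 (SE) by limma-voom, and neither passed, which does not show that its effects were alike.

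Cell type markers moved with genotype in the same samples. Of the 6 IS markers, 4 were called lower and none higher in the ArKI IS, where they summed to 9900 to 11597 CPM, below all WT samples (13526 to 14760 CPM). Both sperm and late spermatid markers that passed the filter in the IS were also called lower, and all 8 summed to 9.19 to 61.9 CPM in WT and 1.89 to 5.12 CPM in ArKI. In the IS all 5 smooth muscle markers were called lower in ArKI (summed level 514 to 593 CPM in WT and 224 to 400 CPM in ArKI), as were all 5 endothelial markers and 3 of 5 basal cell markers, while 3 of 5 fibroblast markers were higher and 1 lower. In the caput none of the smooth muscle or basal cell markers were called, and 2 endothelial markers and 1 fibroblast marker were higher. Of the clear cell markers 2 were higher and 1 lower in each segment, of 5 tested in the IS and 4 in the caput. Of the 6 caput markers, 2 were higher and 2 lower in the IS and 1 was lower in the caput. Of the 8 sperm and late spermatid markers, the 7 that passed the filter in the caput were all called lower in ArKI, and all 8 summed to 203 to 317 CPM in WT and 32.0 to 90.4 CPM in ArKI. The same sum was 18663 to 23533 CPM in the WT testis, where *Alox5* was at 2.16 CPM and *Ptgds* at 330 CPM, both below their WT caput levels. The part of these markers in the members' changes was not tested.

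Other genes of the pathway are described from 5 lists of 59 genes. In the IS 30 of them passed the filter, of which 4 rose and 7 fell, and in the caput 31 passed, of which 6 rose and 3 fell, beside 29.6% and 27.7% of all genes called in these segments, so nothing particular to the pathway is read from the counts. In the testis 1 of 35 rose and none fell by edgeR's test, beside 1.96% of all genes called there and 1.64% called higher. The median log2 fold change of the lists was -0.097 in the IS and -0.015 in the caput. *Ptger4*, the EP4 receptor for prostaglandin E2, rose in both segments, from 10.4 ± 1.26 to 21.6 ± 0.965 CPM in the IS (log2 1.05 ± 0.095, edgeR adjusted p = 8.15e-08) and from 6.86 ± 1.67 to 14.5 ± 1.21 CPM in the caput (log2 1.07 ± 0.14, edgeR adjusted p = 2.73e-05). *Tbxa2r*, the thromboxane A2 receptor, fell in the IS from 2.20 ± 0.598 to 0.821 ± 0.558 CPM (log2 -1.35 ± 0.39, edgeR adjusted p = 0.0124). The other receptors that passed the filter, 1 in the IS and 4 in the caput, were not called.

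Of the 18 phospholipase A2 genes that release arachidonic acid, 8 were tested in each segment, and 1 rose and 1 fell in each. *Pla2g4f*, a cytosolic phospholipase A2, fell in the caput from 54.4 ± 7.58 to 15.7 ± 2.14 CPM (log2 -1.78 ± 0.10, edgeR adjusted p = 7.31e-09), and its effect was more negative there than in the IS (interaction -1.48 ± 0.30, edgeR adjusted p = 0.00206). It was higher in the WT caput than in the WT IS (log2 -2.36 for IS against caput). So were 7 of the 10 members, both *Ptgds* and *Alox5*, which fell in the ArKI caput, and *Alox12* and *Alox15*, which rose there. *Alox12e*, an epidermal lipoxygenase of the *Alox12* family, fell in the IS (log2 -1.13 ± 0.15, edgeR adjusted p = 1.37e-05) and rose in the caput (log2 0.78 ± 0.22, edgeR adjusted p = 0.0122). Its interaction was 1.90 ± 0.27 (edgeR adjusted p = 2.30e-05), and in WT it was higher in the IS, 12.6 ± 2.17 CPM against 3.24 ± 0.947 CPM in the caput. Of the 4 tested genes of the list of other lipoxygenases and leukotriene steps, 3 rose in the caput (*Alox12e*, *Aloxe3* and *Ggt5*), where 13.7% of all genes rose, and in the IS none rose and 1 fell.

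Smaller changes were spread over the remaining steps. Among the other prostanoid synthases 1 gene rose and 2 fell in each segment, with *Ptgis*, the prostacyclin synthase, at -0.79 ± 0.14 on the log2 scale in the IS (edgeR adjusted p = 0.000299) and *Cbr1*, a carbonyl reductase acting on prostaglandins, lower in both (-0.24 ± 0.052 and -0.37 ± 0.063). Of the transport and breakdown genes, the transporters *Slco2a1* (-0.40 ± 0.079) and *Abcc4* (-0.58 ± 0.078) fell in the IS and *Ptgr1* (0.59 ± 0.16), a prostaglandin reductase, rose, while none of 7 was called in the caput. In the testis the gene that rose was *Dpep1*, the dipeptidase that cleaves leukotriene D4, from 10.5 ± 0.440 to 16.7 ± 0.838 CPM (n = 3 each, log2 0.64 ± 0.11, edgeR adjusted p = 0.00122).

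**Figure D4:**
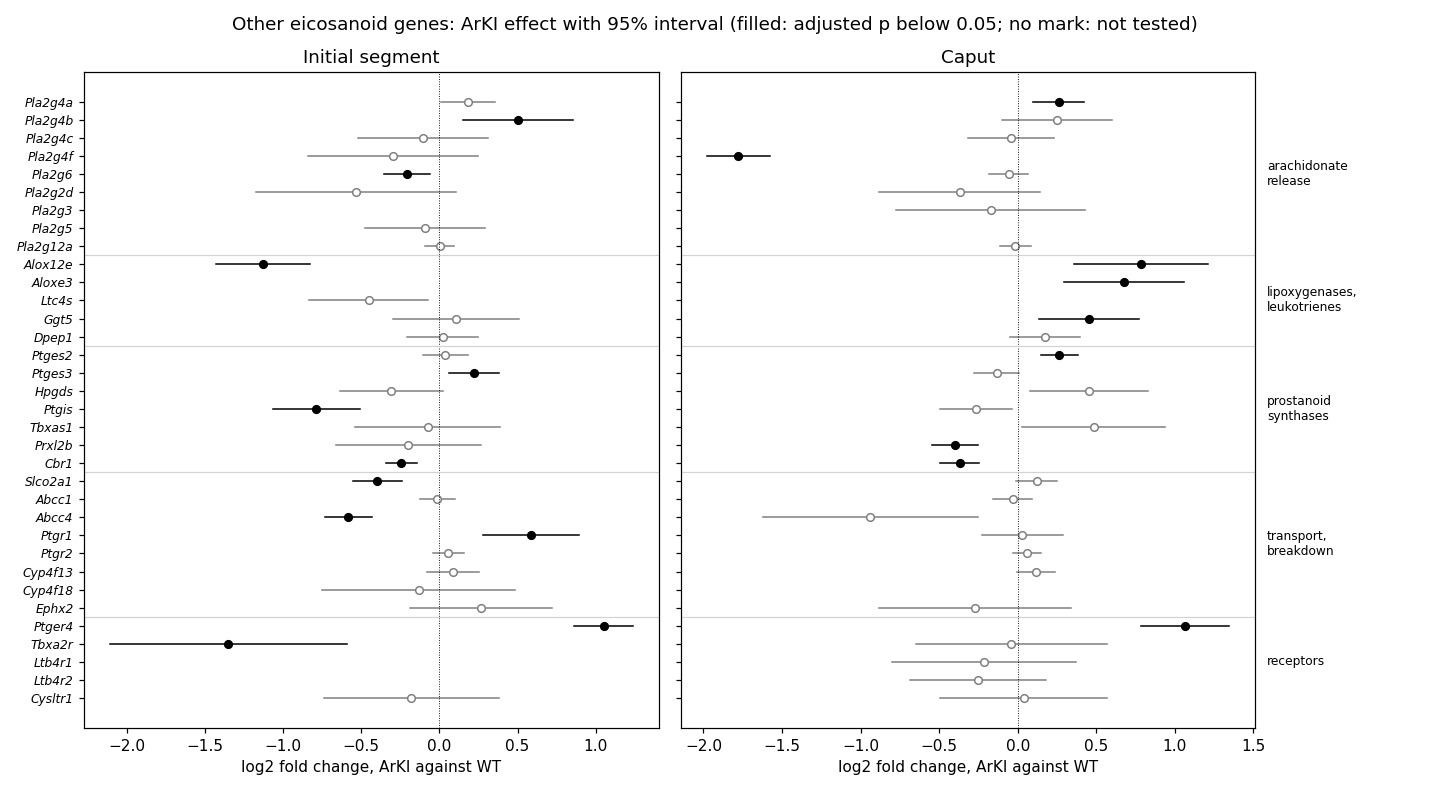
Log2 fold change of ArKI against WT in the IS and caput for the other eicosanoid genes that passed the filter in either segment, grouped by list, with 95% intervals and filled points where the edgeR adjusted p was below 0.05. *Ptger4* lies near 1 in both segments, *Pla2g4f* is the lowest point of the caput, and *Alox12e* changes sides between the segments.

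The genes whose pattern was most like that of the 4 members with the clearest changes are given as a description over the 20 epididymal samples, on log2 CPM plus 0.5 and among 14329 genes. For *Ptgds* they were *Rarres1* (Pearson's r 0.99), *Mtap7d2* (0.99) and *Fgf21* (0.99), and for *Alox5* they were *Gdpd1* (0.96), *Prkag2* (0.96) and *Fam189a1* (0.96). For *Alox12* they were *Cdhr5* (0.98), *Mprip* (0.97) and *Fam89a* (0.97), and for *Alox15* they included *Ovgp1* (0.92) and *Ramp1* (0.90). The samples fall into 4 groups, so these values mostly reflect the group means. Within the groups the values were lower, 0.74 for *Rarres1* with *Ptgds* and 0.020 for *Gdpd1* with *Alox5*. *Rarres1* moved with *Ptgds* in the caput (log2 -1.73 ± 0.075) and the IS (-1.07 ± 0.33) but rose in the testis (1.92 ± 0.10, edgeR adjusted p = 7.76e-11), where *Ptgds* had -0.10.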

How the data were processed

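The authors aligned 50-base single-end reads to mm10 with STAR, counted uniquely mapped reads per RefSeq gene with Subread 1.5.1 (version from the submitters' processing notes), and deposited raw counts for 23337 genes in 26 samples, without pooling. The labels and the methods name different TruSeq kits, and strand use in counting is not given in the sources used here.

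Here the counts of ArKI and WT were compared within each tissue using edgeR 4.0.16 in R 4.3.3 (filterByExpr at a count of 10 and a total of 15, TMM factors, robust quasi-likelihood test, Benjamini-Hochberg over all genes tested), and a gene was called at an adjusted p below 0.05. Segments, tissues (13 WT samples) and the interaction were fitted likewise. RPKM used GENCODE vM21 exon lengths (GRCm38). SE is the log2 fold change divided by the square root of F, and intervals are 1.96 SE (none is given for the *Alox15* interaction, whose fold change is too near 0 for this ratio). The fits were tested on simulated data.

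Alternatives were RLE factors, library size only, genes with at least 1 count, DESeq2 1.42.0, limma-voom (3.58.1), all 20 epididymal samples in one fit, a replicate block, the thresholds of the study's methods, and leaving out each replicate. The ROTS test of the methods was not run. Other pathway genes were named at an adjusted p below 0.05 and a fold change above 2 in an ArKI comparison, with genes below that fold added after their values were seen. For members past an adjusted p of 0.01 and a 2-fold change, the 3 genes with the highest correlation were named. *Prxl2b* and *Ptgdr2* are in the tables as *2810405K02Rik* and *Gpr44*. Members and lists were chosen with earlier results of these data known. *Alox5* and *Alox12e* are also among genes that the study picked from these samples. The targeted gene and 1 gene that the correlation rule names for *Alox15* are not reported here. Figures were drawn with matplotlib 3.10.9.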

Additional observations from a re-analysis of the deposited data

Results flagged for a closer look

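Within groups of 5 samples, 4 values stood apart from the rest of their group, of 40 groups checked, where chance gives about 2. They were *Alox5* in ArKI caput replicate 2 (4.42 CPM), *Ptgs2* in WT IS replicate 3 (35.1 CPM), *Ptgs2* in ArKI caput replicate 2 (10.5 CPM) and *Ptges* in WT IS replicate 3 (32.4 CPM). The 2 samples concerned are each marked for 2 genes, and ArKI caput replicate 2 has the lowest total count of all 26 samples. Leaving out WT IS replicate 3 moved the *Ptgs2* log2 difference in the IS from -2.20 to -1.12 and left *Ptges* called at -0.38 (edgeR adjusted p = 0.00391).

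The effect of ArKI differed between the segments for *Alox5* (caput minus IS, log2 -2.40), *Ptgds* (-1.07) and *Alox12* (-0.58), by the interaction test in edgeR.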

How the results depend on the processing

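In the caput 4 of the 10 genes were called under every alternative run, *Alox12* and *Alox15* stayed called throughout in the IS, *Ptges* in all but the study's thresholds, and *Alox5* in the interaction. The IS count of 6 became 2 at the study's thresholds, 5 with library size only and 7 with DESeq2 or all 20 epididymal samples in one fit, and ranged from 3 to 6 with a sample left out. The testis count of 1 became 0 at the study's thresholds and ranged from 0 to 1 with a sample left out. The interaction count of 3 became 5 with DESeq2 and ranged from 1 to 4. The cause of these moves was not tested. Over all genes, the study's thresholds gave 543 in place of 3980 calls in the IS, 683 in place of 3808 in the caput and 132 in place of 311 in the testis, where genes with at least 1 count gave 467 and leaving out WT replicate 3 gave 186. For the other pathway genes those thresholds gave 2 calls in place of 11 (IS), 2 in place of 9 (caput) and 0 in place of 1 (testis), and genes with at least 1 count gave 2 in the testis. In the interaction they went from 5 to 3 without IS ArKI replicate 5, caput WT replicate 4 or caput ArKI replicate 1.

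No source used here ties equal replicate numbers to a mouse, and they were not taken as pairs. Deviations of same-numbered samples correlated at -0.095 to 0.20 in the IS, -0.19 to 0.20 in the caput and -0.0043 to 0.054 in the testis between genotypes. Between the IS and the caput they correlated at -0.0089 to 0.18 in WT and -0.10 to 0.20 in ArKI. Samples 3, 4 and 5 in WT and 4 and 5 in ArKI correlated best with their own number there, and the others did not. With the replicate number as a block, 6, 4 and 1 genes were called in the IS, caput and testis and 4 in the interaction. In the IS *Ptgds* lost its call (-1.09, adjusted p = 0.103, edgeR) and *Ptgs2* gained it (-1.87, adjusted p = 0.0351, edgeR). In the interaction *Ptgds* lost its call (-1.12) and *Ptgs1* (0.353) and *Ptges* (0.57) gained one.

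Directions turned only for values that were not called. In the caput *Lta4h* was at 0.0344 with library size only, 0.00283 for genes with at least 1 count, 0.00294 with limma-voom and 0.000462 with the replicate block, and -0.037 to 0.039 with a sample left out. *Ptgs2* there was at -0.31 with limma-voom and -0.61 to 0.38 with a sample left out, and *Hpgd* at -0.045 to 0.090. In the testis samples left out gave -0.13 to 0.27 for *Alox5*, -0.39 to 0.20 for *Alox5ap*, -0.76 to 0.11 for *Alox15* and -0.075 to 0.029 for *Lta4h*. In the interaction *Alox15* was at -0.13 with limma-voom and -0.32 to 0.23 with a sample left out, and *Alox5ap* at -0.055 to 0.45. For testis against caput in WT *Alox15* was at -0.26 with library size only, -0.057 with the block and -0.086 to 0.24 with a sample left out, and *Alox5ap* at -0.45 to 0.067.

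Counts per sample were low for *Alox15* (2 to 80) and *Alox5ap* (8 to 37) in every tissue, for *Alox5* in the IS and testis (20 to 47), for *Ptgs1* in the testis (10 to 32) and for *Ptgs2* in the caput (13 to 50), the ArKI IS (15 to 21) and the testis (0 to 2). Other pseudocounts were not run, since the only member under the filter, *Ptgs2* in the testis, had no sample above 3 counts and so no test.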
